A study of Vitis vinifera with 3 samples.

Results

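The regions described here were those that the study's authors listed as differently methylated between mature and first-growth grape berries, in all 3 cytosine contexts. Every row on a numbered chromosome in the 3 tables of this pair was taken, which gave 157675 regions of 377997 in the whole series. They comprised 4817 CG regions, 8525 CHG regions and 144333 CHH regions, where H stands for A, C or T. The berries were of the cultivar Fujiminori, with the species labelled as Vitis vinifera. They were collected 40 days after flowering for first growth and 90 days after flowering for maturity, with no treatment named. A library from véraison, the onset of ripening at 65 days, was used to say which regions its own comparison with first growth did not list, and for their levels at that stage where another table gave one. Each stage was 1 bisulfite library of berry DNA, and the number of berries behind it is not stated, so no test between stages was possible and every difference describes these libraries. The depth behind the levels is unknown. Because a berry holds several tissues, a changed level per cell and a changed mix of cells cannot be told apart.

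Plant cytosine methylation is kept up by different enzymes in each context. CG methylation is copied onto the new strand after replication by a maintenance methyltransferase. CHG methylation is kept by a methyltransferase that reads a histone mark, and CHH methylation has to be set anew, in part guided by small RNAs, mostly over transposons and other repeats. Methylation within genes is mainly CG in flowering plants. Methylation can also be removed actively by DNA glycosylases, and in tomato such an enzyme is needed for normal ripening. No sequence of the listed regions was used here.

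The levels themselves showed a limit in the lists. In 0 of the 377997 rows were both levels closer than 2-fold once their rounding to 1 percentage point was allowed for, although no label states such a limit. All deposited p-values of this pair were under 0.01, the highest being 0.00999337 in the authors' deposited table of CHG regions. Many regions lay just inside the limit. Of the CG regions, 55.6% differed by 2 to 2.5-fold, as did 57.2% of CHG regions and 22.6% of CHH regions. In the CG regions of that narrow band the medians were 40% for first growth and 23% for the mature library. What follows is therefore about differences of at least 2-fold.

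CHH methylation was higher at maturity in almost all listed regions, CG methylation was lower in most, and CHG methylation went both ways. Of the CHH regions, 143497 were higher at maturity (99.4%, exact Clopper-Pearson 95% interval 99.4 to 99.5% over regions). Of the CG regions, 996 were higher (20.7%, interval 19.5 to 21.8%), and of the CHG regions 3392 were higher (39.8%, interval 38.7 to 40.8%). These 3 shares are the background for every share by level, length or place given below. The intervals cover counting error over regions only, and neighbouring regions are not independent.

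Higher CHH regions had a median level of 6% at first growth (quartiles 3 and 11%) and 21% at maturity (quartiles 14 and 34%). The 836 lower CHH regions went the other way from 20% to 2%, and 29.5% of them were at 0% in the mature library. Lower CG regions had medians of 37% and 15%, and higher CG regions had 15% and 37%. These 2 directions were mirror images in level but not in number. CHG regions were similar, with 41% and 16% in lower regions and 19% and 46% in higher ones. Where both levels were above 0%, the median ratio of the levels was 3.31 in CHH, 2.32 in CG and 2.29 in CHG. A level of 0% in 1 library was listed for 7874 CHH, 249 CG and 389 CHG regions.

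**Figure D1:**
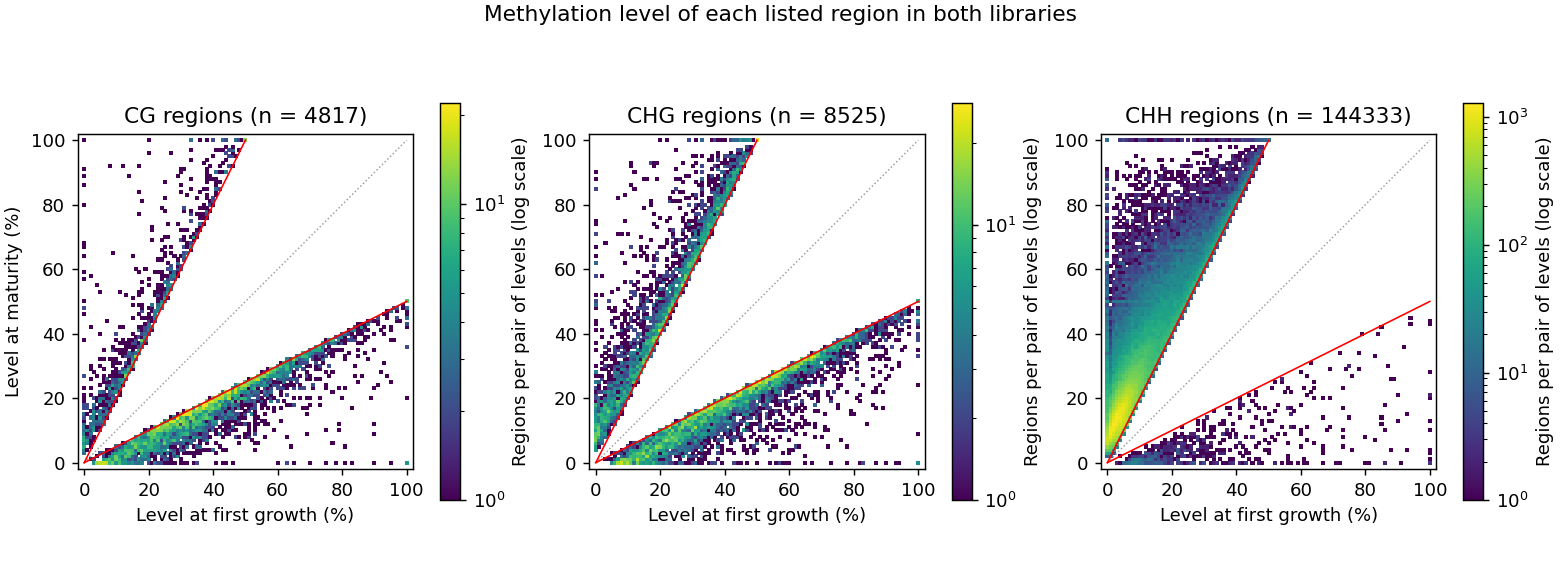
Methylation level of each listed region at first growth (horizontal axis, %) and at maturity (vertical axis, %), with colour giving the number of regions at each pair of levels on a log scale and red lines marking a 2-fold difference. No region lies between the red lines beyond rounding, CG regions crowd under the lower line, CHG regions lie along both, and CHH regions fill the upper left.

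Rows of a table were not always separate places. Joining regions that overlapped within a table reduced 144333 CHH rows to 126732 places, 8525 CHG rows to 7808 and 4817 CG rows to 4554. The places covered 10578 kb in CHH, 1821 kb in CG and 1684 kb in CHG. Joined by direction, lower CG regions covered 1552 kb and higher CG regions 269 kb. The corresponding cover for CHG was 1100 kb lower and 584 kb higher.

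The level at first growth set which direction could be listed. Since a level cannot exceed 100%, a region above 50% at first growth could be listed only if it was lower at maturity. Accordingly 0 of 1011 CG, 0 of 1837 CHG and 0 of 119 CHH regions starting above 50% were higher. Below 50%, both directions were open. There the share higher fell with the starting level in CG, from 66.0% of 541 regions at 10% or less to 10.1% of 681 regions above 40%. In CHG it fell from 85.5% of 1188 regions to 28.2% of 1075. In CHH it moved little, from 99.8% of 107309 regions to 93.2% of 813. These falls depend in part on the sorting, since a higher start leaves less room for a gain and more for a loss. Where the higher of both levels was 10% or less, 29.5% of CG and 46.25% of CHG regions were higher at maturity. Among regions at 50% or less at first growth, 50.7% of CHG regions were higher, compared with 39.8% of all CHG regions. That class holds gains that ended above 50% but no losses from above 50%. With both levels at 50% or less, 1861 of 5157 CHG regions were higher (36.1%), so losses outnumbered gains there too. For CG the share higher was 26.2% with the first-growth level at 50% or less and 18.8% with both levels there.

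The gain in CHH regions grew with the starting level. Its median was 12 percentage points for regions at 10% or less at first growth, 23 points between 10 and 20%, 30 points between 20 and 30%, and 45 points between 40 and 50%. The 2-fold limit requires larger gains from higher starts, and the median ratio fell over the same classes, from 4 to 2.04. Most CHH regions were at the low end, with 74.3% of them at 10% or less.

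Sorting by the higher of both levels treats gains and losses alike, and the limit then favours neither. Sorted in this way, CG regions were mostly lower except at the top of the range. The share higher was 29.5% where the higher level was 10% or less, 13.7% between 40 and 50%, 39.1% between 80 and 90% and 53.3% above 90% (exact interval 44.6 to 61.9%). The CG regions above 90% were few, 137, and short, with a median of 122 bp. CHG regions crossed over. Between 20 and 60% the share higher was 32.4 to 34.6%, whereas 62.4% of the 484 regions between 80 and 90% and 66.6% of the 335 above 90% were higher. These 2 top CHG classes were short too, with median lengths of 114 and 90 bp, against 213 bp between 20 and 30%. Length was not held equal between the classes. In CHH the share higher stayed between 95.8 and 99.6% over all classes.

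Gene models held 29.7% of CG, 43.8% of CHG and 9.78% of CHH regions. How much of the genome lies in gene models was not measured, so these shares cannot be called high or low. The share in gene models depended on level. In CG it was 47.5% where the higher level was 10% or less and 15.8% between 80 and 90%. In CHG it fell from 64.1% to 22.5% between the same classes, and in CHH from 13.4% to 8.32%. The median of the higher level was 30.5% for CG regions within gene models and 40% for those outside, 36% and 49% for CHG, and 19% and 21% for CHH. Direction also differed between gene models and the rest. For CHG, the regions whose higher level was above 60% were higher at maturity in 58.4% of 1700 cases outside gene models (exact interval 56.0 to 60.8%) but in 30.4% of 628 cases within them (interval 26.8 to 34.2%). Where the higher level was 20% or less, the CHG shares were 45.8% outside and 41.4% within, with overlapping intervals. CG regions had the opposite order at low levels, with 22.0% higher outside and 32.7% higher within at 20% or less, and nearly the same shares above 60%, 28.6% and 30.2%. At 20% or less, the CG regions within gene models were also shorter, with a median of 304 bp against 381 bp outside. Length was not held equal in this contrast.

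**Figure D2:**
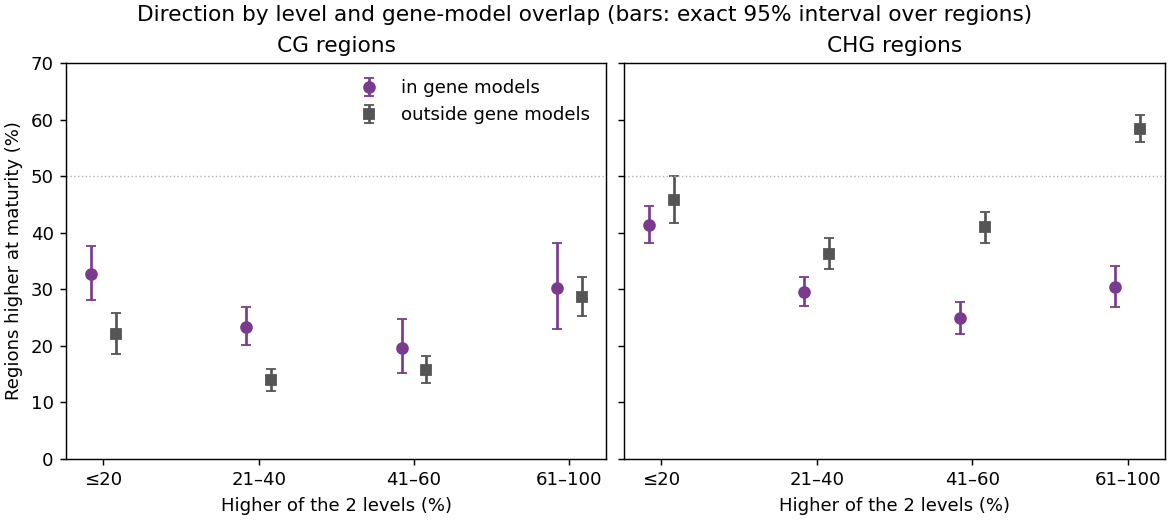
Share of CG and CHG regions that were higher at maturity (vertical axis, %) by the higher of both levels (horizontal axis, %), within gene models (circles) and outside them (squares), with exact 95% intervals over regions as bars. Outside gene models the CHG share rises to 58.4% in the top class, whereas within them it is 30.4%.

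Long CG and CHG regions were mostly losses, and long CHH regions were gains. CG regions had a median length of 353 bp, CHG regions 176 bp and CHH regions 61 bp. The share higher among CG regions fell from 42.0% over 50 and up to 100 bp to 5.43% above 700 bp, where 453 of 479 regions were lower. Restricted to CG regions at or above the median length, the share was 12.3%, against 20.7% of all. CHG regions fell from 52.6% higher at 50 bp or less to 15.0% above 700 bp. Of CHH regions over 200 bp, 3582 were listed and 0 were lower, while at 50 bp or less 344 of 41495 were lower.

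Length and level were not interchangeable in this. Within CG regions whose higher level lay between 20 and 40%, those of at most 273 bp, the shortest of 4 equal classes, had 31.0% higher (exact interval 26.8 to 35.4%), and those of 571 bp or more, the longest class, had 4.94% (3.15 to 7.31%). Between 40 and 60% the shortest and longest classes had 33.9% and 4.82%. In CHG the shortest and longest classes between 20 and 40% had 40.8% and 21.8%. Longer CHH regions also had larger gains, with medians of 12 percentage points at 50 bp or less, 22 points over 100 and up to 200 bp, and 29 points over 300 and up to 400 bp. Their median level at first growth was also higher, at 5%, 8% and 14%. Lengths depend on how the authors delimited regions, which is not stated in the labels.

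**Figure D3:**
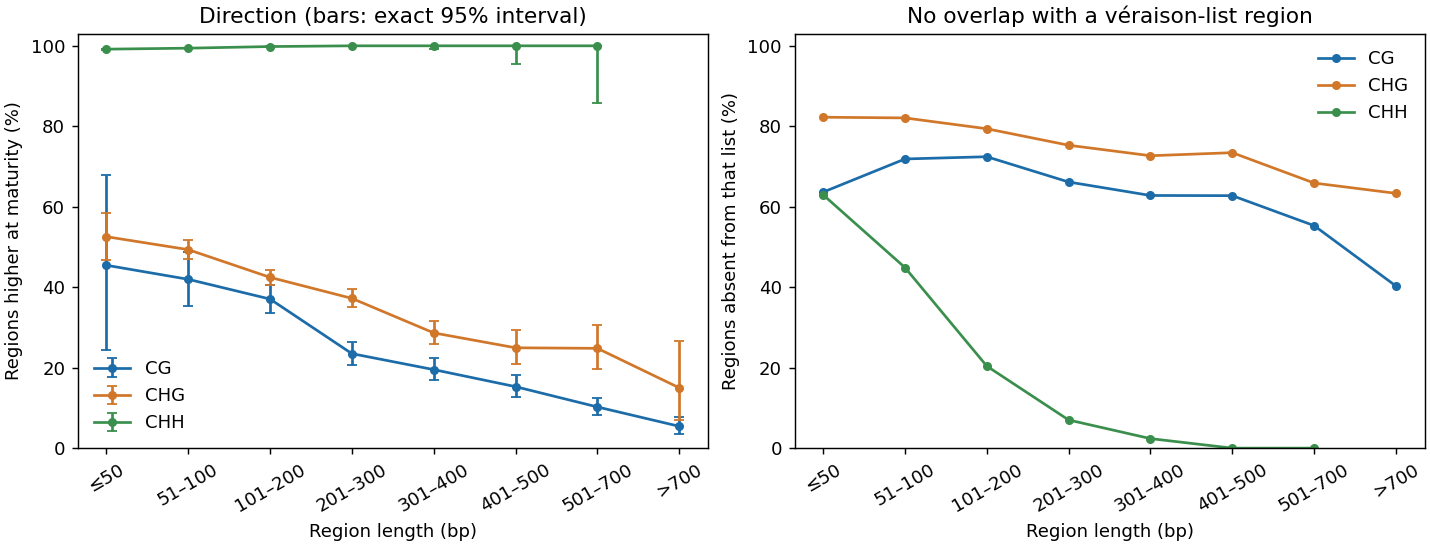
Left, share of regions higher at maturity (%) by region length (bp), with exact 95% intervals over regions; right, share of regions that overlap no region of the same context listed for véraison against first growth (%). Classes of under 20 regions are left out. CG and CHG gains thin out with length, and CHH regions over 200 bp are nearly all in both lists.

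CG losses were concentrated towards the chromosome ends and CHH gains were not. Each chromosome was divided into 10 equal parts, up to the last listed position. Lower CG regions had a density of 11.7 per Mb in the outer 4 parts and 4.92 per Mb in the middle 2 parts, a ratio of 2.37. The outer parts were denser on 18 of 19 chromosomes, with ratios of 0.54 to 4.18. The ratio was 2.35 for lower CG regions outside gene models. Here and below, densities outside gene models are per Mb of the whole parts, not per Mb lying outside models. Higher CG regions had 2.5 per Mb in the outer and 1.98 per Mb in the middle parts, and the outer parts were denser on 12 of 19 chromosomes. Higher CG regions outside gene models had 1.40 per Mb of the outer and 1.58 per Mb of the middle parts, a ratio of 0.88. How much of each part lies in gene models was not measured, so a turn in their order was not tested. For CHH gains the middle was the denser, with 361 per Mb against 309 per Mb in the outer parts, on 14 of 19 chromosomes.

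The rare CHH losses were denser towards the ends, as the CG losses were, with 2.33 per Mb in the outer parts and 1.26 per Mb in the middle. They were denser in the outer parts on 15 of 19 chromosomes. Lower CHG regions had a ratio of outer to middle density of 1.31, or 1.07 outside gene models, and higher CHG regions had 0.86. The share of regions in gene models moved with position too, from 54.6% of CHG regions in the first of the 10 parts to 32.9% in the sixth, and from 13.1% to 5.69% of CHH regions. How much sequence was covered by reads in each part is not in the tables, and its part in these densities was not tested.

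The size of the change also depended on position, in opposite ways for CHH and CHG gains. CHH gains had a median of 17 percentage points in the outer parts (from 6% to 24%) and 13 points in the middle (from 5% to 18%), and were the larger in the outer parts on 17 of 19 chromosomes. CHG gains had medians of 24 points in the outer parts (from 17% to 41%) and 33 points in the middle (from 25% to 58%), and were the larger in the outer parts on 3 of 19 chromosomes. CG gains went the way of CHG gains, with 18 points in the outer parts (from 13% to 32%) and 25 points in the middle (from 17% to 40%). They were the larger in the outer parts on 4 of 19 chromosomes. CG losses had the same median of 22 percentage points in both. The 2-fold limit requires larger gains from higher starts, and starting levels were not held equal between the parts.

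**Figure D4:**
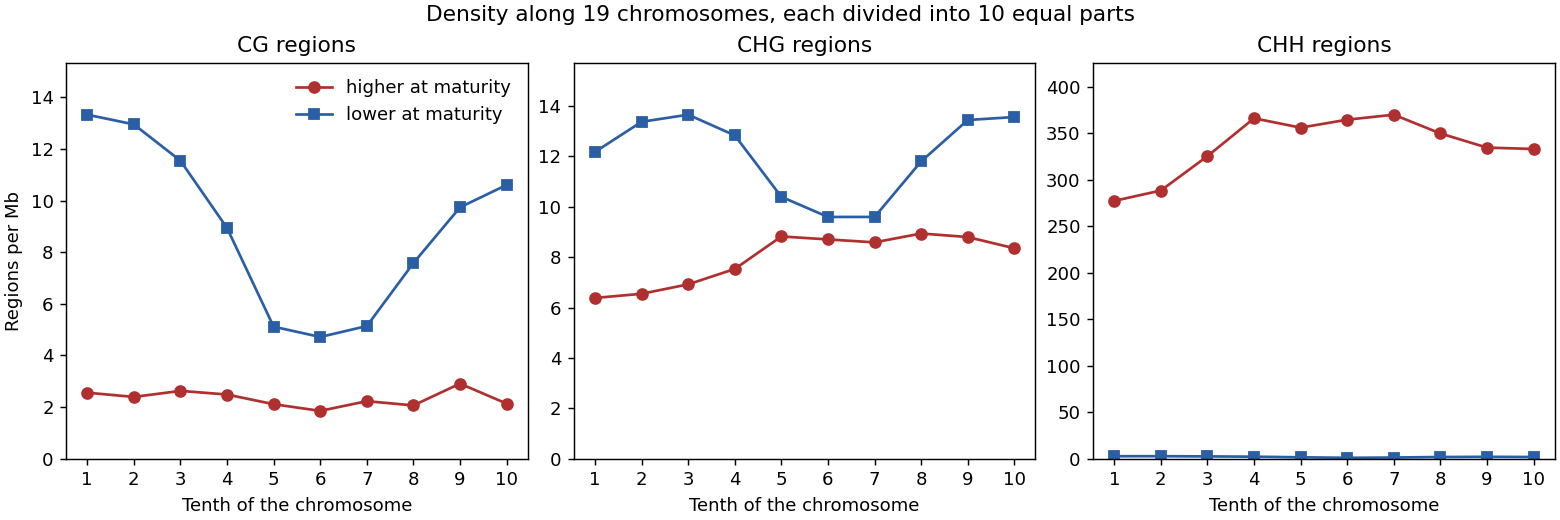
Regions per Mb (vertical axis) that were higher (circles) or lower (squares) at maturity in each of 10 equal parts of the chromosomes (horizontal axis), summed over 19 chromosomes. Lower CG regions fall from 13.3 per Mb in the first part to 4.72 per Mb in the sixth, while higher CHH regions rise from 277 to 365 per Mb.

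Between chromosomes the shares differed modestly. The CG share higher ranged from 13.1% on chromosome 11 (exact interval 8.93 to 18.2%) to 26.3% on chromosome 16 (20.7 to 32.5%). For CHG, chromosome 17 had the fewest gains, 26.1% (21.8 to 30.7%), and chromosome 15 the most, 48.4% (43.9 to 52.9%). CHH shares lay between 99.2 and 99.6% throughout. CHH density ranged from 295 per Mb on chromosome 6 to 436 per Mb on chromosome 17. The greatest CG density was 14.4 per Mb, on chromosome 15.

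The densest windows of 1 Mb differed between contexts. The CG window lay on chromosome 15 between 18 and 19 Mb and held 47 regions, of which 45 were lower at maturity, compared with a median of 10 per window. The CHG window lay on chromosome 16 between 4 and 5 Mb, with 59 regions, 39 of them lower, against a median of 19. The CHH window lay on chromosome 15 between 4 and 5 Mb, with 668 regions, 667 of them higher, against a median of 313. That CHH window had a median gain of 7 percentage points, and the next densest window, on chromosome 1, held 665 regions.

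The 3 tables named 6751 gene models, each with its start, end and strand but with no gene symbol or function. CHH regions named 4568 models, of which 4463 held only higher regions. CG regions named 1241 models, 909 with only lower regions, 298 with only higher regions and 34 with both. CHG regions named 2523 models, 1567 with only lower regions, 725 with only higher regions and 231 with both. The models in CG were short, with a median of 3.92 kb, compared with 10.5 kb in CHG and 7.75 kb in CHH. Models of 40 kb or more held 14.0% of the CHG regions in models, and 22.6% of those were higher, against 32.6% of those in shorter models. All 3 contexts were listed in 129 models.

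Along the models, higher CG regions were most frequent at the start. With each model cut into 5 equal parts in the direction of transcription, 31.8% of 355 higher CG regions had their midpoint in the first part and 13.2% in the fourth. Lower CG regions were somewhat more frequent at both ends, with 23.5% of 988 in the first part and 23.2% in the last. CHG losses lay further inside, with 24.0% of 2538 in the second part and 14.5% in the last. CHH gains were also more frequent inside, with 22.5% of 13941 in the third part and 16.5% in the last. The parts are shares of models that differ in length between contexts.

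Of the models under 40 kb, VIT_11s0037g01200.t01 on chromosome 11 (10264848 to 10266092, minus strand) and VIT_13s0064g01800.t01 on chromosome 13 (23675747 to 23680031, minus strand) held the most CG and CHG gains, 5 rows each. In the first, 3 CG rows and 2 CHG rows overlapped into 1 place per context, with levels of 8 to 20% at first growth and 17 to 42% at maturity. In the second they formed 2 places per context, with 11 to 18% at first growth and 23 to 36% at maturity. Each model also held 1 CHH gain, from 1% to 5% in the first and from 3% to 13% in the second. These gains in the 3 contexts started from low levels.

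The models with the most losses had them in CHG alone. VIT_13s0047g00330.t01 on chromosome 13 (16143325 to 16156038, minus strand) held 7 lower CHG rows in 3 places, with 40 to 79% at first growth and 16 to 39% at maturity. VIT_03s0063g02260.t01 on chromosome 3 (5494213 to 5528939, minus strand) held 6 lower CHG rows in 6 places, with 34 to 70% at first growth and 9 to 32% at maturity. Neither held a listed CG region, and the first held 1 CHH region that rose from 0% to 13%.

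The CG gains with the smallest deposited p-values were chr9:19139582-19139942, which went from 17% to 59%, and chr1:14124494-14124612, which went from 40% to 81%. Both lay outside gene models. The leading CG losses were chr19:474148-474813, within a gene model, from 77% to 22%, and chr14:29539737-29540242, outside gene models, from 87% to 34%. The longest CG region, 1783 bp on chr16:21184563-21186345 in a gene model, fell from 26% to 8%. The longest CG gain, 1020 bp on chr13:3250617-3251636 in a gene model, went from 1% to 6%.

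In CHG, the leading gain spanned 702 bp on chr8:18691210-18691911 and went from 16% to 63%. The authors' deposited table gives it p = 4.13794e-38. The next, on chr1:8319775-8320752, went from 25% to 60%. The leading CHG loss, on chr1:7816956-7817941, went from 67% to 32%, and the next, on chr7:3162023-3162543, from 32% to 10%. The longest CHG regions were a loss of 1071 bp in a gene model on chr14:21335067-21336137 (43% to 21%) and a gain of 980 bp in a gene model on chr10:1575373-1576352 (16% to 33%).

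In CHH, a small p-value did not always mean a large change. On chr18:18535564-18536085 the level went from 1% to 2%, and on chr6:9649249-9649655 from 2% to 9%, each with p listed at 0 in the authors' deposited table. The longest CHH region, 747 bp on chr4:19401818-19402564, went from 20% to 44%. The leading CHH losses were on chr6:6529069-6529211, listed at 100% and 1%, and within a gene model on chr1:21740437-21740576, from 30% to 0%. The longest CHH loss was 178 bp on chr12:248347-248524, from 39% to 0%.

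Many regions listed at maturity overlapped no region of the same context listed for véraison against first growth. This was so for 2983 CG regions (61.9%), 6608 CHG regions (77.5%) and 65569 CHH regions (45.4%). Both lists share the first-growth library, and the 2-fold limit applies to each, so absence does not mean that véraison equalled first growth. Gains were absent more often than losses in CG, 72.2% against 59.3%, and in CHG, 81.7% against 74.7%. They were also shorter, with median lengths of 245 against 382 bp in CG and 152 against 194 bp in CHG. Length was not held equal between the directions. In CHH the rare losses were absent in 75.6% of cases and the gains in 45.3%. Of the 6751 gene models, 1832 were named in no context for véraison against first growth.

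Absent CHH regions were shorter and less methylated. Higher CHH regions that were absent had a median length of 54 bp and medians of 4% at first growth and 18% at maturity, against 70 bp, 7% and 24% for those that were not absent. The share absent fell from 63.0% of CHH regions at 50 bp or less to 7.0% for lengths over 200 and up to 300 bp. In CG it was 40.3% above 700 bp, compared with 61.9% of all. A shared stretch of 1 bp ends absence, so longer regions have more chance of an overlap. How much this adds to the trend with length was not tested. The median distance from an absent region to the nearest region of the véraison list was 335 bp in CHH, 14325 bp in CHG and 24787 bp in CG, and 27.0% of the absent CHH regions were within 100 bp. These distances depend on how dense the list is: it held 174174 CHH regions, compared with 8000 in CHG and 4486 in CG.

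For some absent regions the level at véraison is known from the list of maturity against véraison. That list shares the mature library, and it admits only regions in which véraison and maturity differed by 2-fold. The 402 lower CG regions of this kind had medians of 38% at first growth and 14% at maturity, and the overlapping regions had 35% at véraison. The 227 higher ones had 15% at first growth and 36% at maturity, with 15% at véraison. In CHG, 1023 lower regions had medians of 41% (first growth), 40% (véraison) and 17% (maturity), and 616 higher ones had 15%, 14% and 37%. In CHH, 3740 higher regions had 6%, 8% and 28%. The choice of these regions sets much of this order, since they had to differ by 2-fold between véraison and maturity and to be absent from the list of véraison against first growth. The same holds for the regions that the véraison list did hold, which had to differ by 2-fold from first growth at both later stages. Among these, the median of 1557 lower CG regions was 15% at véraison, compared with 14% at maturity.

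**Figure D5:**
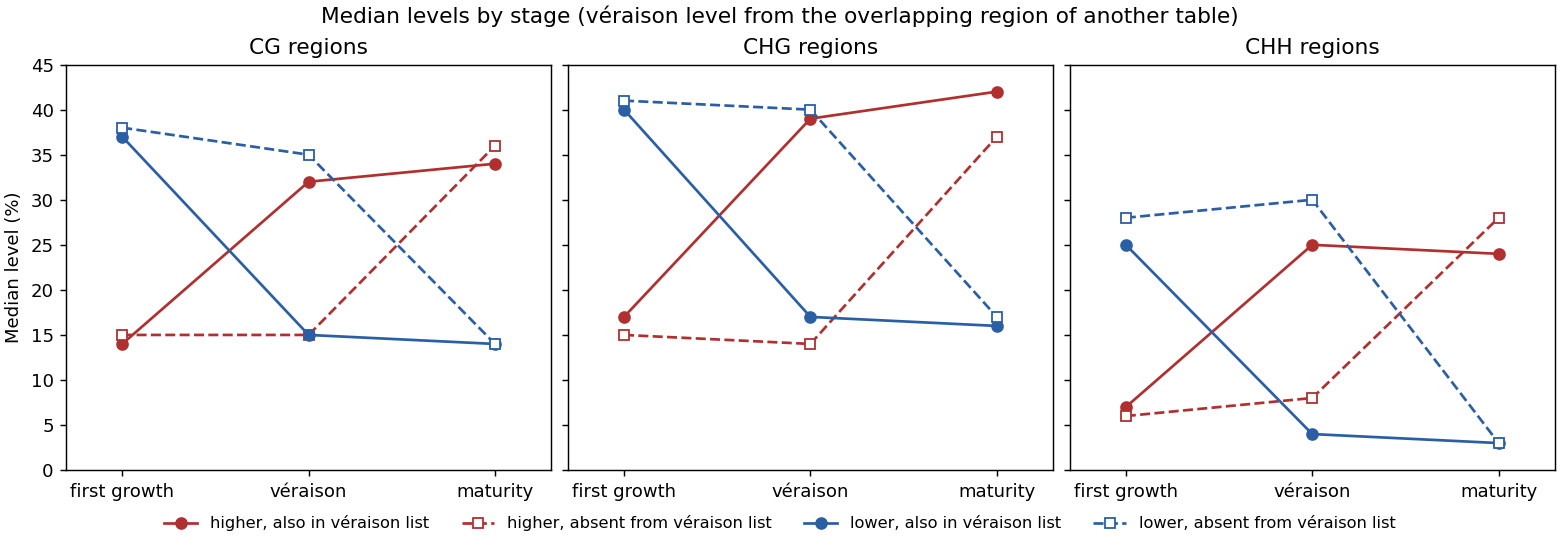
Median level (%) at the 3 stages for regions also in the list of véraison against first growth (solid lines) and for regions absent from it that were listed for maturity against véraison (dashed lines), by direction. Levels at véraison come from overlapping regions of another table, whichever way those changed. The 2-fold limits of the lists that chose each set fix much of where its véraison point lies. The lines describe the sets and test nothing. For lower CG regions the véraison median is 35% on the dashed line and 15% on the solid line.

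Most absent regions were listed for maturity against first growth alone, namely 2354 CG, 4969 CHG and 61724 CHH regions. Where maturity and first growth differ by 4-fold or more, no véraison level over the same bases can lie closer than 2-fold to both. Listing also depends on the p limit, on where regions were delimited and on the depth at véraison, which is unknown. Why such places were not listed was not tested. There were 341 CG regions of this kind (14.5%), 839 CHG regions (16.9%) and 24064 CHH regions (39.0%), counted where rounding could not bring the ratio under 4. For the remaining regions a véraison level closer than 2-fold to both is possible, which was not tested either.

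The absent regions with the smallest deposited p-values showed both cases. A CHH region on chr17:1356878-1357067 rose from 1% to 43%, and the overlapping region of maturity against véraison had 1% at véraison. A CG region on chr15:20164765-20165333 rose from 1% to 17%, with 2% at véraison. The CHG loss on chr1:7816956-7817941 was at 67% in both earlier libraries and 32% in the mature one, and a CHG gain in a gene model on chr8:15691052-15691586 went from 16% to 51%, with 22% at véraison. In contrast, a CG loss on chr4:4302167-4302833, from 91% to 44%, was listed in neither other comparison. A CHH loss on chr19:10373406-10373525, from 90% to 13%, was also listed in neither, and its levels differed by more than 4-fold.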

How the data were processed

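The authors deposited, for each pair of stages and each context, a table of regions with 2 average methylation levels, a p-value and an overlapping gene model. The deposited levels run from 0 to 1 (fractions, per the file headers) and are given here as percent. A deposited note ties the p-value column to a chi-square comparison. Its values all lie under 0.01 and were read as p-values, and whether they were adjusted is not known here. The submitters' processing notes name BSMAP 2.73, a bisulfite read aligner. Which caller, coverage filter, genome build or annotation was used is not stated, so coordinates are those of the tables and no sequence was read. The tables used hold no read counts, so the depth is unknown and levels carry no interval.

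Differences are maturity minus first growth. Length was end minus start plus 1. A region was absent when it shared not even 1 bp with a region of the same context listed for véraison against first growth. The direction of change was not compared in this. For levels at véraison, the region sharing the most bases was taken, whichever way it changed. By identifier, 0 of the gene models were found among 29591 genes of the reference list of assembly ASM3070453v1. This was a match of names only, so it does not say that the models are missing from that assembly. Calculations used Python 3.11.15, pandas 2.3.3 and SciPy 1.17.1, and the overlap and joining steps were checked on simulated data. With 1 library per stage no test was made.

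Regions, lists and alternatives were chosen with earlier results of these data known. Named regions were, per context and direction, the 2 with the smallest p, the longest, and the absent one with the smallest p, plus the densest 1 Mb window per context. Named gene models were the 2 per direction under 40 kb with the most CG and CHG regions.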

Additional observations from a re-analysis of the deposited data

Results flagged for a closer look

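Regions in organelle DNA were outside the comparisons above and were few but present in each context. The pair held 6 CG, 13 CHG and 8 CHH regions there. All 6 CG and 13 CHG regions lay in the mitochondrion and were lower at maturity, each set with medians of 3% at first growth and 1% at maturity. Of the CHH regions, 4 lay in the chloroplast and 4 in the mitochondrion, and all 8 were higher at maturity, by 1 to 12 percentage points. The 4 in the chloroplast had medians of 1% at first growth and 2% at maturity. How complete bisulfite conversion was in each library was not measured here, and its part in small CHH gains was not tested.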

How the results depend on the processing

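Over 69 combinations of a result and an alternative, 0 median differences changed sign, and no share of regions higher at maturity crossed 50%. In 18 the value stayed within the 95% interval of the reported one (exact binomial for a share, binomial order statistics for a median), among them all that included organelle sequence. The intervals of the median difference were -19 to -18 points in CG, -15 to -14 in CHG and 15 to 15 in CHH, and with organelle sequence the CHG median was -14 points. Regions are not independent replicates, and CHH intervals are narrow, so small shifts count among the other 51. With larger differences only, the shares higher at maturity were 19.3% (CG), 42.0% (CHG) and 99.4% (CHH), the shares in gene models 20.0%, 33.1% and 8.47%, and the shares absent from véraison against first growth 79.2% (CHG) and 37.6% (CHH). With p at or under the largest divided by 10, the shares higher were 18.6%, 37.9% and 99.5%, the shares absent 59.8%, 75.5% and 44.0%, and the median differences -20 (CG) and -16 (CHG) percentage points. With the longer regions only (median length or more), the shares higher were 12.3%, 33.2% and 99.6%, in gene models 25.5%, 47.7% and 9.15%, absent 55.9%, 74.2% and 32.0%, and the median differences -20, -16 and 18 points. Weighted by length, the shares higher were 15.0%, 34.6% and 99.6%, in gene models 27.3%, 47.0% and 9.42%, and absent 56.8%, 74.8% and 37.1%. An overlap of 0.5 of the shorter region gave 79.3% (CHG) and 51.2% (CHH) absent, and overlap with any context 51.1%, 71.4% and 45.1%. With regions of at least 2.5-fold or at 0% in 1 library, a setting chosen after seeing the data, the shares higher were 18.9%, 36.9% and 99.3%, in gene models 27.5%, 47.2% and 9.94%, and absent 58.6%, 76.6% and 49.4%. The causes of these shifts were not tested. No replicate could be left out. No paired analysis was possible because each stage had 1 library. Without read counts, levels of 0% or 100% in short regions may rest on few reads.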

Other observations

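In CHH, 6 regions had a p listed at 0 in the authors' deposited table, which is the smallest value there, and their gains were 1 to 12 percentage points. They lay on chromosomes 6, 7, 10, 15 and 18, a pair of them overlapping on chromosome 15 from 8024924 to 8024999. All 6 also overlapped regions of véraison against first growth. Differences of at most 2 percentage points were listed for 177 CHH, 6 CG and 2 CHG regions. These regions were chosen after their values were seen.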
